A study of Mus musculus with 4 samples.

Results

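Expression of 41 genes of meiosis, the piRNA pathway and other germ cell functions was described in mouse ES cells depleted of Rif1 and in their controls. The members were given by name, in a list drawn up with earlier results of these data known, and every non-control probe bearing one of the 41 gene names was taken. This gave 48 of the 39429 probes of the array: 35 genes had 1 probe, 5 genes had 2 and Dmc1 had 3. The cells were E14tg2a, a line of mouse ES cells cultured on gelatin without feeder cells in medium with serum and LIF. RNA was taken from untreated cells, from control siRNA transfectants at 72 h, and from Rif1 siRNA transfectants at both 48 h and 72 h. It was read on one-color arrays. The label of the untreated sample gives no harvest time. Per the methods, the Rif1 siRNA was a mixture of 2 reagents, mRif1#2 and NC#1. With a single array for every condition there are no replicates, so differences are given without tests, and a control siRNA array at 48 h was not analysed here.

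Meiosis is the division that reduces the chromosome set of germ cells. Homologous chromosomes are broken by Spo11, repaired with the recombinase Dmc1 and held together along axes of cohesin and Hormad proteins by the synaptonemal complex. The piRNA pathway silences transposons in the germ line through small RNAs bound by Piwi proteins, with Tudor domain proteins as scaffolds and Mael, Mov10l1 and Asz1 as further factors. Many such genes have CpG-rich promoters that are kept silent outside the germ line by DNA methylation and by a variant Polycomb complex, PRC1.6, whose subunits Mga with Max and E2f6 bind E-boxes and E2F sites. ES cells are known to express part of this program already. Rif1 is a nuclear protein that controls replication timing and restrains genes of the 2-cell stage in ES cells.

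The promoters of the genes on which the results turn are shown first, because genes of this kind are known for E-boxes and E2F sites there. RefSeq promoter windows of GRCm38.p6, each with 250 bases before the annotated start and 50 after it, were found for 37 of the 41 members. The windows of Tex11, Tdrd6, Spo11 and Piwil2 were not used here. Dazl, Tdrkh and Slc25a31 were over 2-fold higher at both times of Rif1 siRNA, Ddx4 was near the level of control siRNA, and Hormad1 was lower. Capitals mark the letters CACGTG, an E-box that reads the same on both strands, and GCGGGAA, the letters of an E2F site, on either strand (TTCCCGC where it lies on the reverse strand). No match shown overlaps another.
Dazl (chr17:50293571-50293870, reverse strand): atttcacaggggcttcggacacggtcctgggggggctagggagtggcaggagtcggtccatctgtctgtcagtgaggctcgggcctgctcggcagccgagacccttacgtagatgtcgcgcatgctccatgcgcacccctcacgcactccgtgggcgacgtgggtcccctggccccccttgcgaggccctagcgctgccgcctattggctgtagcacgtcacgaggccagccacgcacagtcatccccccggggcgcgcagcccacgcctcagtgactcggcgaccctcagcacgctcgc
Tdrkh (chr3:94412994-94413293, forward strand): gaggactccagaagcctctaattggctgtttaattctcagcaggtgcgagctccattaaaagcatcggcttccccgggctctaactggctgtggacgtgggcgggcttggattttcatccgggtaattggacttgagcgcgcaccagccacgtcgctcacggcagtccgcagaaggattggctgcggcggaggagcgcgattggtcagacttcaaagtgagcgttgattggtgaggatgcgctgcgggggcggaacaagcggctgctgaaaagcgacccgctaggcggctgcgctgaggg
Slc25a31 (chr3:40708621-40708920, forward strand): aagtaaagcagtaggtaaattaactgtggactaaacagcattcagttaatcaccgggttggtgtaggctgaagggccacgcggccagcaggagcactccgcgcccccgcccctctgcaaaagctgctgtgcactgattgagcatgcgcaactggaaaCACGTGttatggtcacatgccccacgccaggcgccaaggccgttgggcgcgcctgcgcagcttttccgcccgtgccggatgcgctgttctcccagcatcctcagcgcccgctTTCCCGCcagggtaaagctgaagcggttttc
Ddx4 (chr13:112652261-112652560, reverse strand): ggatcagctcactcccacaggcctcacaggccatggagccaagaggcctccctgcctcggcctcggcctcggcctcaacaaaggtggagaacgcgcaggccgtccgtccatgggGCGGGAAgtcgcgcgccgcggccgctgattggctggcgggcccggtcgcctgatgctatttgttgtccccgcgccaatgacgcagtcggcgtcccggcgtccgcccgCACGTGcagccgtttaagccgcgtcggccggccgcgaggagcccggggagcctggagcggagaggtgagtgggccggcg
Hormad1 (chr3:95559427-95559726, forward strand): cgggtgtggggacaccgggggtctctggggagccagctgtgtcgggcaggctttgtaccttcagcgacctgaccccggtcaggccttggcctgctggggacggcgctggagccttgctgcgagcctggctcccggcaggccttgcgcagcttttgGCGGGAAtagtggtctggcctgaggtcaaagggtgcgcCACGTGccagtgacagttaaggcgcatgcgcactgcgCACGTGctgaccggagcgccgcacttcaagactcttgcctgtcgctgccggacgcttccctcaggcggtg

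The window of Dazl held neither motif and that of Tdrkh held neither, whereas that of Slc25a31 held 1 E-box at base -93 from the start and 1 E2F match at base 20. The window of Ddx4 held an E-box at -29 and an E2F match at -136, and that of Hormad1 held 2 E-boxes, at -57 and -20, and an E2F match at -95. Over the members, 15 of 37 genes had an E-box in at least 1 window, 9 had the E2F letters and 6 had both. As a share of windows, 39.1% of the 46 member windows held the E-box, against 7.15% of all 32851 windows, and 21.7% held the E2F letters, against 4.6%. The member windows were also richer in CG, with a median of 19 CG against 7 over all windows. Among the 9221 windows with at least 19 CG, 11.6% held the E-box and 11.1% the E2F letters. The 12 members with an E-box that were measured on both arrays had log2 differences at 72 h between -0.79 and 1.15 with a median of 0.25, and the 18 with a window but no E-box lay between -0.68 and 1.59 with a median of 0.18. Piwil1, Tdrd1 and Tdrd9, which also hold an E-box, were not well above background on the control siRNA array and are not in these medians. A match is a run of letters only, and binding was not measured.

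**Figure D1:**
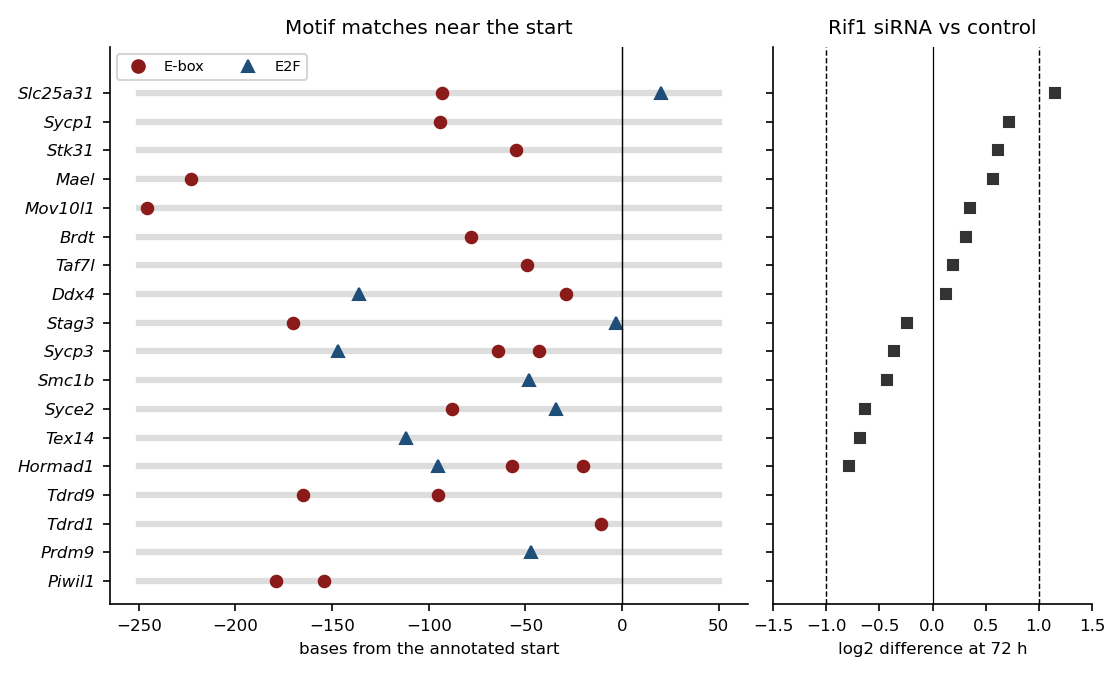
Positions of E-box (circles) and E2F (triangles) matches in bases from the annotated start, for the 18 members with a match (the first window with a match for each gene), beside the log2 difference of the gene at 72 h of Rif1 siRNA against control siRNA. Genes without a square were not well above background on both arrays; genes with matches range from -0.79 (Hormad1) to 1.15 (Slc25a31).

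The level of a probe is its processed signal divided by the 75th percentile of the signals of its array, so that 1 is the 75th percentile. Levels of different probes are not compared, because probes differ in brightness for the same amount of RNA. A probe flagged as not well above background has only an upper limit, and a fold change against it is a lower bound. On this scale, the targeted gene Rif1 had levels of 5.55 (untreated), 5.42 (control siRNA), 2.15 (Rif1 siRNA, 48 h) and 4.15 (Rif1 siRNA, 72 h). Both Rif1 siRNA arrays were below the others, and that of 72 h less so. Between 58.8% and 74.1% of the spots of an array were well above background, more on the Rif1 siRNA arrays than on the others, and the lowest level well above background fell in the same order from 0.0236 to 0.00543. Where a probe was well above background on the control siRNA and untreated arrays, the SD of their log2 difference was 0.26, and it was 0.42 for levels under 0.1, 0.23 from 0.1 to 1 and 0.13 from 1 upward. This SD holds biological and technical differences of 2 arrays and serves below as the scale of spread, since no replicates exist.

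In untreated ES cells, 36 of the 48 member probes were well above background, beside 58.2% of all probes. The brightest probe was well above background on all 4 arrays for 31 of the 41 genes, beside 22518 of all 39429 probes, and Hormad2 lacked only the untreated array. Prdm9, Piwil1, Asz1, Tdrd1 and Tdrd9 were well above background on both Rif1 siRNA arrays only, and Sycp2 at 72 h of Rif1 siRNA only. Nanos2, Spo11 and Tdrd6 stayed near background throughout, with 0 arrays well above it. Of the 48 member probes, 7 passed this limit on both Rif1 siRNA arrays and on neither of the others, against 7.95% of all 39411 probes with a value on every array. These 7 are 14.6% of the member probes, and they include a dim second probe of Prdm9 and of Brdt. The background limit of the arrays fell in the same direction, and its part in this count was not tested. Of the member probes, 44 passed the filter on low signals, and the remaining counts refer to those.

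Over all members, few differences from control siRNA were over 2-fold, all of them upward. At 72 h against control siRNA, 3 of the 44 member probes were over 2-fold higher, those of Dazl, Slc25a31 and Tdrkh, against 2.82% of the 27758 probes of the array that passed the filter. No member probe was over 2-fold lower, against 1.0% of all probes. At 48 h the same genes and, as lower bounds, Prdm9 and Asz1 were over 2-fold higher, 5 of 44 against 3.16% of all probes. Again no member was over 2-fold lower, against 1.19%. Prdm9 and Asz1 were well above background on the Rif1 siRNA arrays only, so they could be called higher but not lower. With lower bounds left out, the count higher at 48 h was 3 of 37, against 2.35% of 24266 probes. Between control siRNA and untreated cells no member crossed 2-fold in either direction, against 0.584% of all probes higher and 1.02% lower. Both Rif1 siRNA comparisons use the one control siRNA array, so their counts are not independent. The counts also moved with the processing. At 72 h, 1 member probe was over 2-fold higher with normexp background correction, against 1.5% of all probes. With dim signals taken as given, 7 were, against 4.55%.

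Dazl encodes an RNA-binding protein that promotes translation in germ cells and is required for their entry into meiosis. On the untreated, control siRNA, 48 h and 72 h arrays its level was 0.406, 0.274, 0.917 and 0.828 (A_52_P271166, mm9 chr17:50418923-50418982). Both Rif1 siRNA arrays lay above both others, and the control siRNA array was the lowest of the 4. Against control siRNA it was 3.34-fold higher at 48 h and 3.02-fold higher at 72 h, or by 1.74 and 1.59 on the log2 scale. Against untreated cells the log2 difference at 72 h was smaller, 1.03, since control siRNA lay below untreated cells by a log2 difference of -0.57. These differences exceed the SD of 0.23 of control siRNA against untreated cells at such levels.

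Slc25a31 encodes the ADP/ATP carrier of the mitochondrial inner membrane that is specific to germ cells. Its level was 0.112 without transfection, 0.113 after control siRNA, and 0.280 and 0.253 after 48 h and 72 h of Rif1 siRNA (A_51_P329003, mm9 chr3:40528804-40528863). The arrays without Rif1 siRNA gave nearly the same level, with a log2 difference of 0.01, and both Rif1 siRNA arrays were higher. The log2 difference from control siRNA was 1.30 at 48 h and 1.15 at 72 h, and from untreated cells 1.31 and 1.17. With normexp background correction the difference from control siRNA at 72 h was under 2-fold, at 0.88. Its promoter, shown above, is the only one with both motifs among the 3 genes over 2-fold higher at both times.

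Tdrkh encodes a Tudor and KH domain protein of the mitochondrial surface that binds Piwi proteins and takes part in the trimming of piRNA precursors. The untreated and control siRNA arrays gave levels of 0.101 and 0.0929, and the Rif1 siRNA arrays gave 0.206 at 48 h and 0.187 at 72 h (A_55_P2065364, mm9 chr3:94235285-94235344). Both Rif1 siRNA arrays lay above both others, as for 18.1% of all probes well above background on all 4 arrays. The log2 differences at 72 h were 1.01 from control siRNA, just over the threshold, and 0.89 from untreated cells, under it. At 48 h these were 1.15 and 1.03. With normexp background correction the log2 difference from control siRNA was under 2-fold at both times, 0.88 at 48 h and 0.73 at 72 h. With quantile normalization it was 0.92 at 72 h. The next measured members below the threshold at 72 h were Sycp1, at 0.72, Stk31, at 0.61, and Syce1, at 0.60.

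Prdm9, the histone methyltransferase that places meiotic recombination hotspots, and Asz1, a protein of the germ granules on mitochondria needed for piRNA production, were measured on the Rif1 siRNA arrays only. The level of Prdm9 was 0.0344 at 48 h and 0.0315 at 72 h of Rif1 siRNA, whereas the untreated and control siRNA signals, 0.0154 and 0.0166, were not well above background (A_55_P2027052). It was at least 2.07-fold higher at 48 h and at least 1.90-fold higher at 72 h than with control siRNA. The level of Asz1 was 0.0326 at 48 h and 0.0196 at 72 h, against signals not well above background of 0.00696 in untreated cells and 0.0046 with control siRNA, and it was at least 2.05-fold and at least 1.23-fold higher. Against untreated cells, whose background limit was higher, neither bound reached 2-fold. With normexp background correction the log2 bounds of Prdm9 and Asz1 at 48 h were 0.22 and 0.22, both under 2-fold. With quantile normalization they were 0.91 and 0.89, again under 2-fold. Both genes stayed over 2-fold at 48 h with the deposited ratios, outlier spots kept, no filter or dim signals as given.

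**Figure D2:**
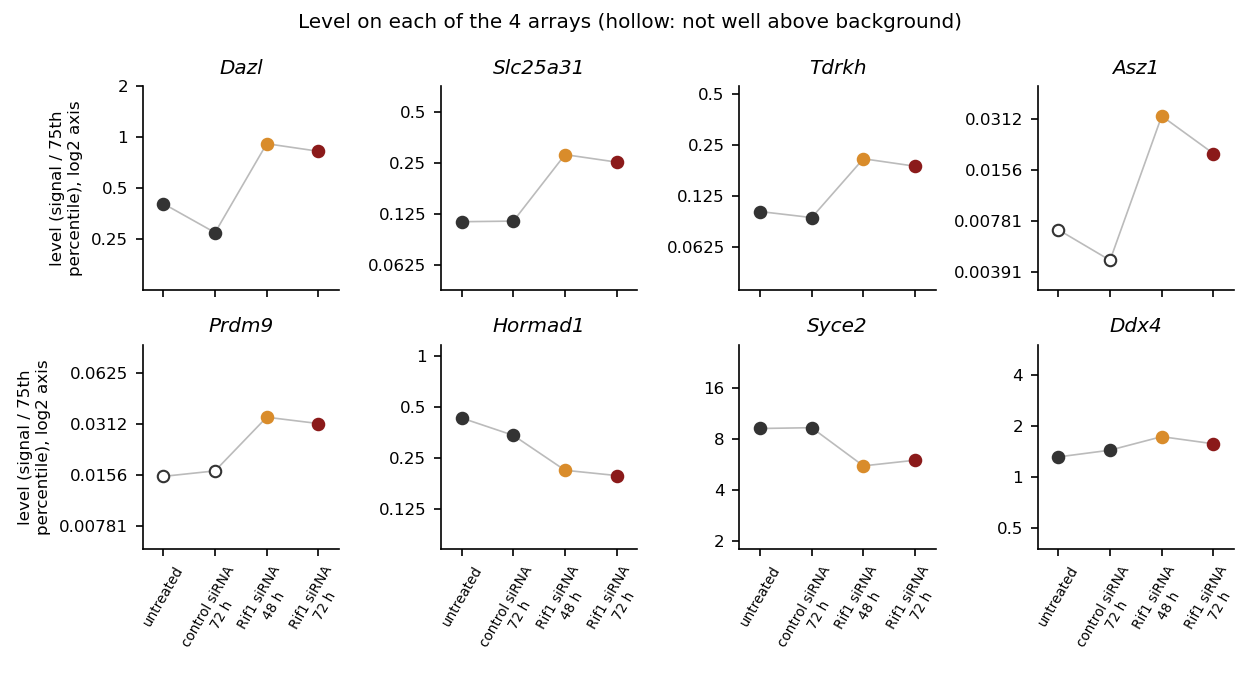
Level of 8 members on each array (signal divided by the 75th percentile of the array, log2 axis spanning 16-fold in every panel; brightest probe of each gene; filled points are well above background, hollow points are not). Dazl, Slc25a31 and Tdrkh are higher on both Rif1 siRNA arrays than on both others, Hormad1 and Syce2 are lower, and Ddx4 stays between 1.31 and 1.73.

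Among the germ cell RNA-binding proteins and regulators, Dazl stood alone above 2-fold. Ddx4, the RNA helicase also called Vasa, had a level of 1.31 untreated and 1.44 after control siRNA, and of 1.73 and 1.57 after 48 h and 72 h of Rif1 siRNA. Its log2 differences from control siRNA were 0.26 at 48 h and 0.12 at 72 h, beside an SD of 0.13 at such levels, and both Rif1 siRNA arrays lay above both others. Sohlh2, a transcription factor of early germ cells, differed by 0.51 at 48 h and 0.25 at 72 h, and its untreated level lay between those of the Rif1 siRNA arrays. Nanos3 and Prdm1, which act in the formation and survival of primordial germ cells, were slightly lower, with log2 differences between -0.13 and -0.30 at the 2 times.

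Stra8, the retinoic acid-responsive gene that opens the meiotic program, differed between the controls more than between Rif1 siRNA and control siRNA. From untreated through control siRNA to 48 h and 72 h of Rif1 siRNA, its levels were 3.46, 5.86, 7.67 and 8.44. The log2 difference of control siRNA from untreated cells was 0.76, and that of Rif1 siRNA at 72 h from control siRNA was 0.53. It was the member most raised by control siRNA, and only against untreated cells was it over 2-fold higher at 48 h and 72 h.

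The genes of the chromosome axis and synaptonemal complex went apart. With the brightest probe of each gene, 3 of the 6 genes measured on both arrays were above control siRNA at 72 h and 3 below, with a median log2 difference of 0.03 and a range from -0.79 to 0.72, beside a median of -0.07 over all 24312 probes measured on both arrays. Counted by probe, with 2 probes each for Sycp3 and Hormad1, the median over 8 probes was -0.38. Sycp1 and Syce1, of the transverse filament and the central element, were higher, and Hormad1, Syce2 and Sycp3 were lower.

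The levels of Sycp1 were 0.175 untreated, 0.226 after control siRNA, 0.411 at 48 h and 0.373 at 72 h of Rif1 siRNA, with log2 differences from control siRNA of 0.86 and 0.72. Both Rif1 siRNA arrays lay above the others, and against untreated cells the difference passed 2-fold at both times. The level of Syce1 was 9.77, 8.48, 13.5 and 12.8 in the same order of arrays, with log2 differences of 0.67 at 48 h and 0.60 at 72 h. For a probe this bright the SD of control siRNA against untreated cells was 0.13.

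Syce2, another protein of the central element, moved the other way. Its levels were 9.23 and 9.33 on the untreated and control siRNA arrays, and 5.56 and 6.0 on the Rif1 siRNA arrays of 48 h and 72 h. The arrays without Rif1 siRNA agreed closely, and the log2 difference from control siRNA was -0.75 at 48 h and -0.64 at 72 h. Thus 2 partners in the same element, Syce1 and Syce2, differed in opposite directions at both times.

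Hormad1, an axis protein that recruits the recombination machinery and monitors synapsis, was the member that was lowest relative to control siRNA at 72 h. The level of its brighter probe (A_55_P1974869) was 0.429 untreated, 0.339 after control siRNA, 0.211 at 48 h and 0.196 at 72 h of Rif1 siRNA. Its second probe gave 0.0623, 0.0378, 0.0231 and 0.0269, so that the Rif1 siRNA arrays were the lowest with either probe. The log2 differences from control siRNA were -0.68 and -0.79 with the brighter probe and -0.71 and -0.49 with the other at 48 h and 72 h. Control siRNA itself lay below untreated cells, with log2 differences of -0.34 and -0.72, and against untreated cells both probes were over 2-fold lower at both times. Sycp3, of the axis, was read by 2 probes that gave log2 differences of -0.39 and -0.36 at 72 h and -0.15 and -0.15 at 48 h, and Hormad2 differed by 0.43 and 0.38 at the 2 times.

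The 3 meiotic cohesin subunits were below control siRNA at 72 h, as were 63.1% of all probes measured on both arrays, and 2 of the 3 were below it at 48 h. Smc1b had levels of 1.41 untreated, 0.966 after control siRNA, 0.730 at 48 h and 0.716 at 72 h of Rif1 siRNA, a log2 difference from control siRNA of -0.43 at 72 h, and control siRNA in turn differed from untreated cells by -0.55. Rec8, the meiotic kleisin, differed by -0.22 at 48 h and -0.32 at 72 h. Stag3 was higher than with control siRNA at 48 h, with a log2 difference of 0.22, and lower at 72 h, with a log2 difference of -0.24, with its highest level in untreated cells.

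Of the meiotic recombination genes, those measured on both arrays stayed close to control siRNA, with a median log2 difference of 0.00 at 72 h over 6 probes and a range from -0.18 to 0.47. Since 3 of these probes read Dmc1, the median over the brightest probes of the 3 genes was 0.08. The 3 probes of Dmc1 lay between -0.34 and -0.27 at 48 h and between -0.18 and -0.08 at 72 h. Tex11, an X-linked gene needed for crossovers, was read by 2 probes that differed by 0.47 and 0.08 at 72 h, the larger value from the dimmer probe. Mei1 differed by 0.38 at 48 h and 0.24 at 72 h.

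For the piRNA and transposon defence genes, the 8 probes measured on both arrays had a median log2 difference of 0.45 at 72 h and 0.49 at 48 h, with 6 and 7 of 8 above 0, beside 36.9% and 38.7% of all probes measured on both arrays above 0. Against untreated cells the medians were smaller, 0.26 at 72 h and 0.38 at 48 h, and control siRNA lay below untreated cells for 7 of the 8 probes, beside 52.4% of all probes measured on both of those arrays. Tex19.1, a placental and germ cell protein that represses transposons, had levels of 18.8 untreated, 15.3 after control siRNA, 24.1 at 48 h and 22.3 at 72 h of Rif1 siRNA. Its log2 difference from control siRNA was 0.66 at 48 h and 0.54 at 72 h, but 0.36 and 0.24 from untreated cells.

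Mael, a protein of the germ granules, had levels of 3.32, 3.29, 4.78 and 4.88 in untreated cells, control siRNA, 48 h and 72 h of Rif1 siRNA. The arrays without Rif1 siRNA were nearly equal, and the log2 difference from control siRNA was 0.54 and 0.57 at the 2 times. Stk31, a Tudor domain kinase of germ cells, had levels of 0.226, 0.188, 0.340 and 0.287 in the same order, with log2 differences of 0.86 at 48 h and 0.61 at 72 h. Both genes were higher on each Rif1 siRNA array than on either of the others. Mov10l1, the RNA helicase that feeds precursors into the pathway, differed by 0.45 and 0.35, and Tdrd7 by 0.44 and 0.11.

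The Piwi proteins, which carry the piRNAs, did not move together. Piwil1 was at least 1.70-fold higher at 48 h and at least 1.78-fold higher at 72 h than with control siRNA, as a lower bound from a dim control. Piwil2 differed by 0.34 at 48 h and -0.04 at 72 h, with levels of 0.247 untreated, 0.213 after control siRNA, 0.269 at 48 h and 0.207 at 72 h. Piwil4 differed by -0.03 and -0.36. Tdrd1 and Tdrd9 had levels of 0.0115 and 0.0142 at 48 h that lay below the background limit of the control siRNA array, 0.0159, so no fold change can be given for them.

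Of the 6 probes of the remaining germ cell genes measured on both arrays, 5 were above control siRNA at 72 h, beside 36.9% of all probes. Those of Taf7l and Hspa2 were above it by less than the SD of 0.26 over all levels. At their own levels the SD was 0.13 for Taf7l and 0.23 for Hspa2. Tex101, a surface protein of germ cells, differed from control siRNA by 0.52 at 48 h and 0.57 at 72 h, Taf7l, a testis variant of a TFIID subunit, by 0.30 and 0.19, and Hspa2, a chaperone of spermatocytes, by 0.17 and 0.13. Brdt, a bromodomain protein of spermatocytes, was read by a brighter probe that differed by 0.29 and 0.31 and by a dim one that was at least 1.41-fold and at least 1.72-fold higher. Tex14, which keeps the bridges between germ cells open, had levels of 0.732 untreated, 0.737 after control siRNA, 0.522 at 48 h and 0.459 at 72 h of Rif1 siRNA. Both Rif1 siRNA arrays were below the others, with log2 differences of -0.50 and -0.68 from control siRNA.

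**Figure D3:**
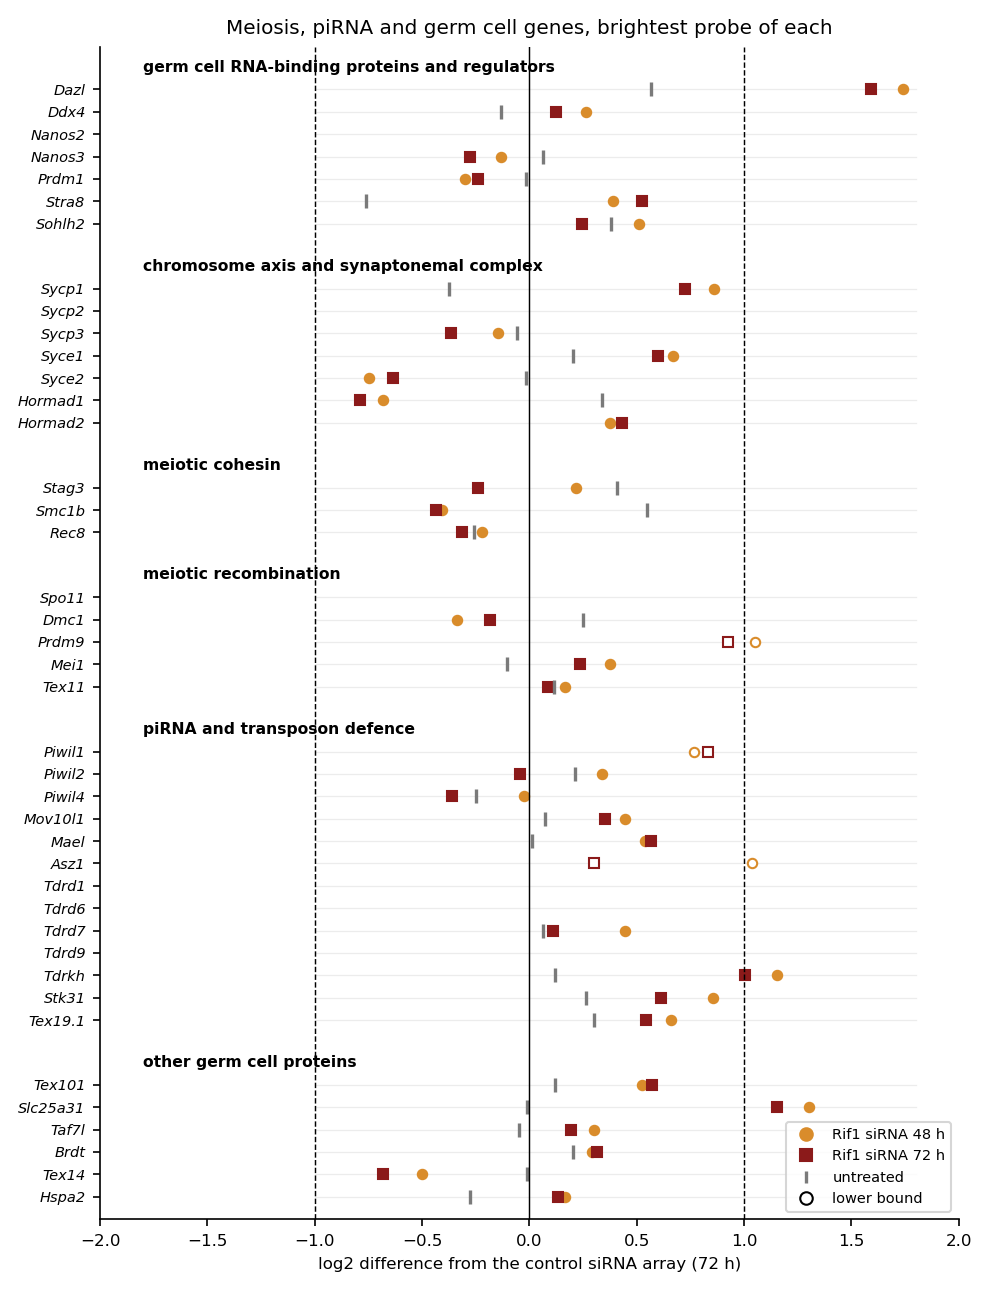
Log2 difference from the control siRNA array for the brightest probe of each of the 41 members, by role, at 48 h (circles) and 72 h (squares) of Rif1 siRNA and for untreated cells (bars); hollow symbols are lower bounds and dashed lines mark 2-fold. Members without a symbol were not well above background or gave no bound. Of the Rif1 siRNA symbols, those of Dazl and Slc25a31 lie farthest right. Farthest left lie those of Syce2 and Hormad1 at 48 h and those of Hormad1 and Tex14 at 72 h.

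Below 2-fold, members were found in both directions. A 1.5-fold threshold for member probes measured on both arrays was added after the data were seen. At 72 h it gave 6 of 37 member probes higher, or 16.2%, against 4.45% of 24312 probes, and 3 lower, those of Syce2, Hormad1 and Tex14, against 2.54%. At 48 h it gave 7 higher, against 5.55% of 24266, and 3 lower, both probes of Hormad1 and that of Syce2, against 3.43%. Among the 36 member probes well above background on all 4 arrays, 18 had both Rif1 siRNA arrays above both others, against 18.1% of all 22518 such probes, and 12 had them below, against 43.3%. Taking the brightest probe of each gene, 13 of 32 genes exceeded the SD of 0.26 upward at 72 h, against 11.9% of all probes measured on both arrays, and 8 downward, against 15.5%, and 11 lay within it. In the same reading of control siRNA against untreated cells, 4 of 31 lay above, against 7.14% of all probes, 7 below, against 8.23%, and 20 within.

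The 2 times gave similar values, with most members somewhat lower at 72 h. Of the 37 genes whose brightest probe was measured on both Rif1 siRNA arrays, 28 were lower at 72 h than at 48 h, against 51.2% of all 27521 probes so measured, and 9 were higher. Of these genes 0 were over 2-fold apart, beside 136 probes over 2-fold higher and 188 lower among the 27758 that passed the filter. The median difference between the times was -0.12 over these genes, beside -0.01 over all probes. The median log2 difference of the member probes from control siRNA was 0.29 at 48 h and 0.12 at 72 h, beside -0.07 over all probes at either time. Against untreated cells it was 0.18 at 48 h and 0.01 at 72 h over 36 probes, beside -0.08 over all probes at either time. Over the array the SD between the 2 Rif1 siRNA arrays was 0.28.

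**Figure D4:**
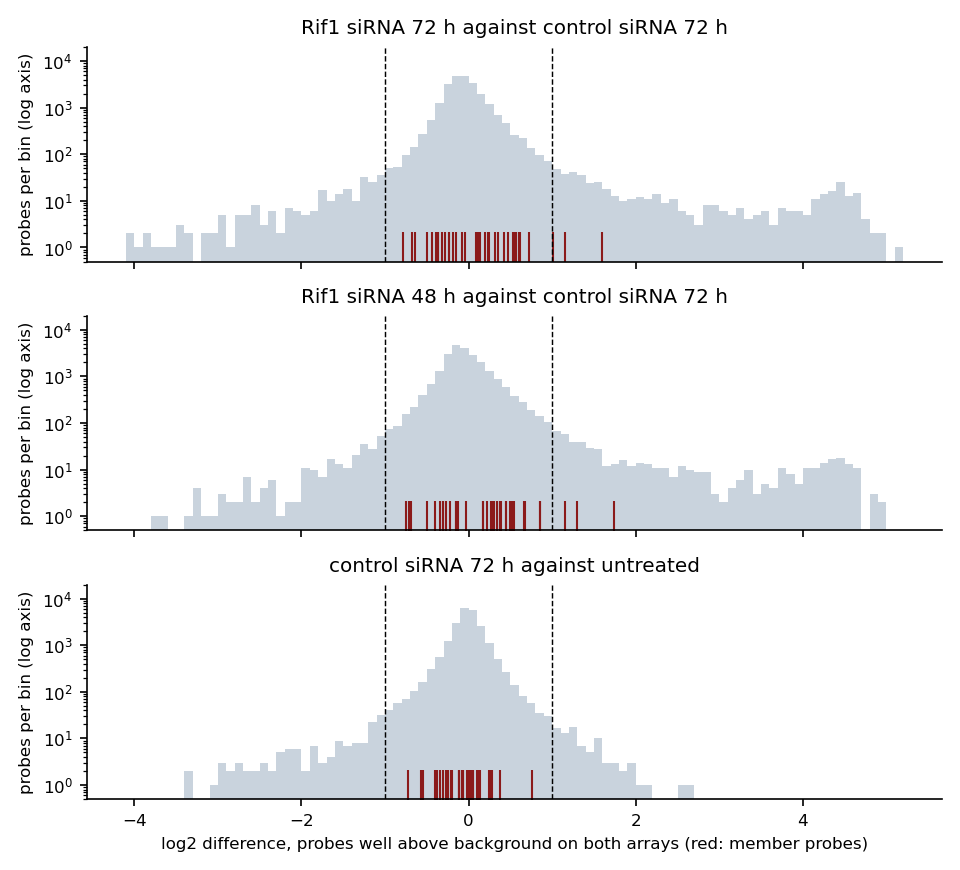
Number of probes per bin of 0.1 in log2 difference (log axis) for the 3 comparisons, each over the probes measured on both of its arrays, with each member probe as a red line and dashed lines at 2-fold. At 72 h the members reach from -0.79 to 1.59 while probes of the whole array reach 5.12; between control siRNA and untreated cells the members stay within -0.72 and 0.76.

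Genes of the same biology outside the 41 members were examined as a list. Of 41 such genes, 35 had probes, and 39 probes measured on both arrays had a median log2 difference of -0.07 at 72 h and -0.10 at 48 h. Of the 43 probes of this list that passed the filter, 1 was over 2-fold higher at 72 h, against 2.82% of all probes. At 48 h there were 2, against 3.16%. Only the brighter probe of Henmt1 was over 2-fold higher at both times, with log2 differences of 1.25 at 48 h and 1.09 at 72 h. Henmt1 encodes the methyltransferase that modifies the ends of piRNAs. The levels of this probe were 0.0356 untreated, 0.0348 after control siRNA, 0.0828 at 48 h and 0.0740 at 72 h of Rif1 siRNA. At levels under 0.1 the SD of control siRNA against untreated cells was 0.42. A second probe of Henmt1 gave no fold change, and its highest signal, 0.0155 in untreated cells, was not well above background. Among other piRNA genes of this list, named after their values were seen, Tdrd12 differed by -0.97 at 48 h and -0.51 at 72 h, Pld6 by -0.67 and -0.33, and Gpat2 by 0.63 and 0.51. Rnf212, a factor of crossover formation, was over 2-fold lower at both times, with log2 differences of -1.09 and -1.24, but its level of 0.123 with control siRNA was the highest of the 4 arrays, and the untreated array, at 0.0429, lay below both Rif1 siRNA arrays, at 0.0578 and 0.0520.

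The later and earlier programs were read from lists as well. Spermatid genes such as Prm1 and Tnp1, which package sperm chromatin, had a median log2 difference of -0.08 at 72 h over 8 probes, between -0.31 and 0.04, and of 0.09 at 48 h, between -0.16 and 0.57. The subunits of PRC1.6 and their partners, among them Pcgf6, L3mbtl2, Mga and E2f6, lay between -0.31 and 0.26 at 72 h and between -0.25 and 0.27 at 48 h over 19 probes. Pluripotency markers had a median of 0.04 at 72 h and of 0.14 at 48 h, with 8 and 11 of 13 probes above 0, medians of 0.24 and 0.36 against untreated cells, and a summed level of 232 to 249 on the 4 arrays. The part of this in the members' values was not tested. Genes of the 2-cell stage, by contrast, had a median of 4.32 at 72 h over 10 probes. Against untreated cells their median was 5.44, and control siRNA itself lay above untreated cells by a median of 1.08.

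Markers of testis somatic cells were read because such tissue could carry germ cell transcripts into a sample. Their summed level, dim signals included, was 2.27 untreated, 2.20 after control siRNA, 1.87 at 48 h and 1.83 at 72 h of Rif1 siRNA. Their 6 genes with a probe had 7 probes, of which 5 passed the filter. Of these, 0 were over 2-fold higher than with control siRNA, against 2.82% of all probes at 72 h and 3.16% at 48 h. Neither Sox9 nor Amh was well above background on an array. Carry-over of transcripts from such tissue was not tested. The summed level of differentiated cell markers lay between 5.27 and 6.09, lowest with control siRNA. Their 10 probes measured on both arrays had a median log2 difference from control siRNA of 0.40 at 48 h, with 8 above 0, and of 0.01 at 72 h, with 5 above 0, and from untreated cells of 0.01 and -0.24. Cdx2, a trophectoderm factor, differed by 0.53 at 48 h and 1.08 at 72 h, and Col1a1 and Col1a2, collagens of mesenchymal cells, by 0.53 and 0.55 at 48 h and 0.82 and 0.82 at 72 h. Gata4 and Gata6, factors of primitive endoderm, differed by -0.16 and -0.01 at 48 h and by -0.32 and -0.34 at 72 h. All 9 listed genes had a probe well above background on every array. The part of these markers in the members' values was not tested. In a bulk sample, more expressing cells and more RNA per cell cannot be told apart.

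**Figure D5:**
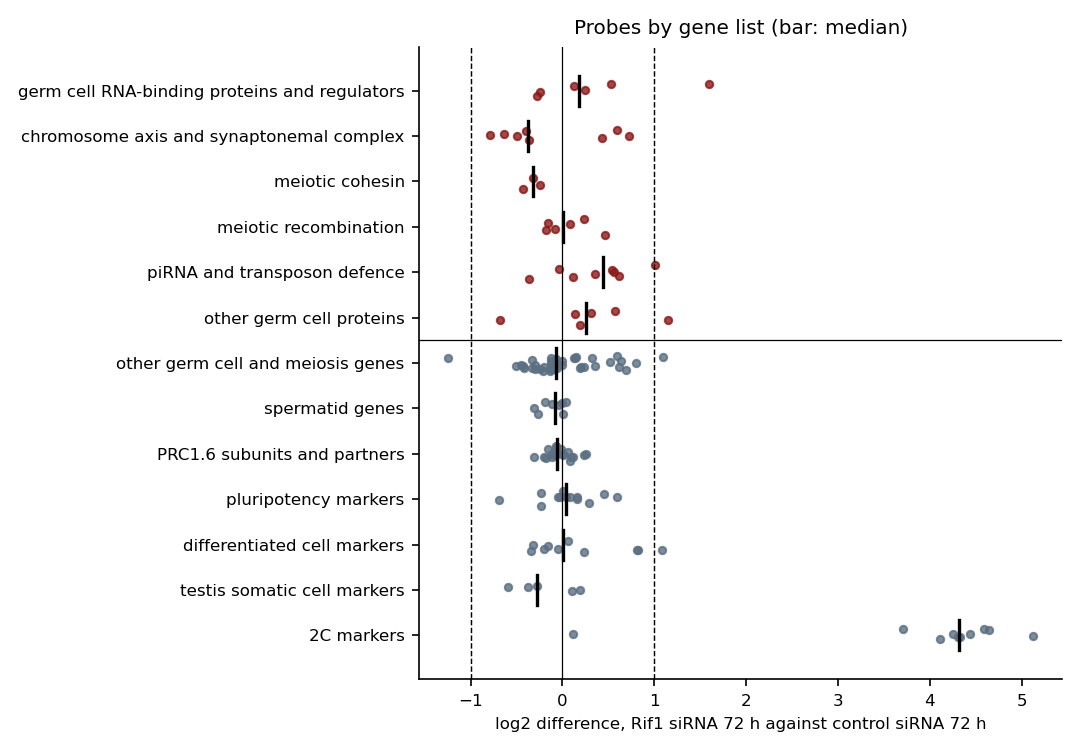
Log2 difference at 72 h of Rif1 siRNA against control siRNA for each probe well above background on both arrays, for the 6 roles of the members (red) and the other gene lists (blue-gray), with the median as a bar and dashed lines at 2-fold. The probes of the piRNA and transposon defence genes have a median of 0.45, those of the axis and synaptonemal complex genes, of which Sycp3 and Hormad1 have 2 each, of -0.38, and those of the 2C markers of 4.32.

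The neighbors of the genes over 2-fold at both times were examined within 300 kb by the mm9 positions of their probes. Around Tdrkh, 3 of the 15 probes with a fold change at 72 h were over 2-fold higher, against 2.82% of the 27758 probes that passed the filter. They read Gm10696 and a neighboring transcript toward lower coordinates, 255.8 to 273.7 kb away, at log2 differences of 4.34 (a lower bound), 4.96 and 4.75. Them4, at 99.6 kb on that side, differed by 0.84 at 72 h, and the probes of Mrpl9, at 16.8 and 18.9 kb on the other side, by -0.32 and 0.00. Around Dazl, 0 of 2 and, around Slc25a31, 0 of 10 such probes were over 2-fold higher, against the same 2.82%. These counts are too small to set the regions apart from the array. The 2 near Dazl differed by 0.72 (Rftn1, at 286.3 kb) and -0.19 (at 51.0 kb). The 2 probes of Intu, next to Slc25a31, differed by 0.23 at 20.5 kb and -0.13 at 70.9 kb, and Hspa4l, at 65.4 kb on the other side, by 0.49.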

How the data were processed

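The RNA of E14tg2a cells was read with Cy3 on 4 Agilent arrays of 43020 non-control spots each, with 1 array per condition and all on 1 slide; groups came from the sample labels. The authors deposited Feature Extraction output (version 11.5.1.1 per the submitters' processing notes), in which the processed signal is an intensity after background subtraction and detrending. The deposited value table holds the ratio of the same signals to the 75th percentile of their array.

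Here, each processed signal was divided by that percentile, outlier spots (120 to 152 an array) were left out, no spot was saturated, and repeated spots were averaged as log2. Probes were kept if flagged detected or compromised on at least 2 arrays and above the 20th percentile on at least 1. Below-background signals entered as lower bounds. A probe differed if over 2-fold. Means of several replicates, tests and intervals were not possible with 1 array per condition. The within-array SD of repeated spots was 0.063 to 0.069 (log2).

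Members and gene lists were chosen with earlier results of these data known. All members are accounted for; values are given in full for members over 2-fold and where a role is described, and genes of other lists are named where over 2-fold at both times or as examples. The brightest probe stands for a gene. Of the 48 member probes, 46 had an accession in the RefSeq table, all with the same symbol. Alternatives were quantile normalization, normexp (offset 50), the deposited ratios, other filters and thresholds, and untreated cells as control. The steps were tested on simulated data. Python 3.11.15, pandas 2.3.3, numpy 2.4.6, R 4.3.3 and limma 3.58.1 were used.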

Additional observations from a re-analysis of the deposited data

Results flagged for a closer look

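Stag3 and Piwil2 differed from control siRNA in opposite directions at the 2 times of Rif1 siRNA, being higher at 48 h and lower at 72 h. For Piwil2 the difference at 72 h was only -0.04, and Stag3 lay below untreated cells at both times, with log2 differences of -0.19 at 48 h and -0.65 at 72 h. The log2 difference of the array at 72 h from that at 48 h was -0.45 for Stag3 and -0.38 for Piwil2. Both were larger than the SD of 0.26 between control siRNA and untreated cells and that of 0.28 between the 2 Rif1 siRNA arrays. This was not particular to these genes, since 7 of 37 members were lower at 72 h by more than 0.26. Stag3 and Piwil2 each rest on 1 probe and 1 array per time, and the difference between the times was not tested.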

How the results depend on the processing

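Dazl was over 2-fold higher at both times under every alternative with a 2-fold threshold, and Slc25a31 under all of these except normexp at 72 h. With normexp, the count of member probes over 2-fold higher was 1 at 72 h and 2 at 48 h, against 1.5% and 1.62% of all probes, and Tdrkh differed by 0.73 and 0.88 (log2). With quantile normalization it was 2 at 72 h, without Tdrkh, and 3 at 48 h, against 2.55% and 2.81%. Probes detected on both arrays gave 3 of 37 at 48 h, against 2.35%, and with dim signals taken as given 7 of 44 were higher at 72 h, against 4.55%. A 4-fold threshold left 0 at both times, against 1.29% at 72 h and 1.35% at 48 h. Against untreated cells, 4 member probes were higher at 72 h, against 2.54%, Tdrkh being lost and Stra8 and Sycp1 gained, and 2 were lower at each time, both of Hormad1, against 1.44% at 72 h and 1.35% at 48 h. The 1.5-fold threshold added later gave 6 higher and 3 lower at 72 h and 3 lower at 48 h. The lower bounds of Prdm9 fell to 0.15 and 0.22 with normexp, and that of Asz1 at 48 h to 0.22. Of the other members measured against both controls, Sohlh2 and Tex11 at 72 h and Stag3, Rec8 and Piwil4 at 48 h changed sign against untreated cells, whereas the medians over members, Dazl, Slc25a31, Tdrkh, Prdm9 and Asz1 kept their sign under the alternatives run for them. The median over members at 72 h was 0.01 with normexp. The cause of these shifts was not tested. No paired analysis was possible because there is a single array for every condition, which also means that none could be left out in turn. Signals near background limit Prdm9, Piwil1 and Asz1.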
